A study of Mus musculus with 4 samples.

Results

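The Gata4 peaks described here are those that carried at least 4 GATA motifs around the peak position. A motif was counted wherever WGATAA (W stands for A or T) occurred on either strand of the 501 bases deposited for a peak, and overlapping matches were counted separately. By this rule 770 of 20410 peaks of the wild-type (WT) list and 503 of 22733 peaks of the *Dnmt3a* -/- *Dnmt3b* -/- (DKO) list were members, 1273 of 43143 peaks in all. The rule used only sequence, so the height of a peak, its presence in the other list and its distance to genes were not part of it.

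The study asked whether loss of *de novo* DNA methylation changes where Gata4 binds and which genes it turns on after ES cells have become mesoderm. Gata4 chromatin immunoprecipitation with sequencing (ChIP-seq) was performed on 4 libraries, with 1 library per condition. The WT Flk1(+) library came from J1-derived mouse ES cells of the 129 background and the DKO Flk1(+) library from ES cells that lack the *de novo* methyltransferases Dnmt3a and Dnmt3b. Both were grown on OP9 stroma, taken at day 4.5, given 100 nM dexamethasone (Dex) for 3 hr and enriched for the mesoderm surface receptor Flk1 with magnetic beads. The WT ES and DKO ES libraries, from undifferentiated cells without Dex, served as the background of their own genotype. All the lines carried Gata4GR, which is Gata4 joined to the part of the human glucocorticoid receptor that binds ligand, under the ubiquitous CAG promoter, so that Dex lets the fusion protein act. Each Flk1(+) label names a single Gata4GR-expressing clone, so genotype cannot be told apart from clone or from library. The antibody mixture was raised against Gata4, so the fusion protein and the cells' own Gata4 cannot be told apart either.

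GATA factors are zinc-finger transcription factors that bind DNA at WGATAR, where R stands for A or G. Gata4 and its relatives are known for roles in primitive endoderm, the heart and the gut, and Gata1 and Gata2 for roles in blood. They act together with the FOG cofactors, encoded by *Zfpm1* and *Zfpm2*. Enhancers bound by GATA factors often carry several copies of the motif.

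The clusters differed in form, and 4 members that were called as members in both lists are shown first because they include tall peaks, a tandem repeat and clusters of separate motifs near genes of the blood and GATA cofactor lists. The coordinates are those of the mm9 build, the strand is plus, each stretch runs from just before the first match to just after the last, and capitals mark the WGATAA matches, which read TTATCW when the motif lies on the minus strand.
*Lrig3* chr10:125398878-125399063: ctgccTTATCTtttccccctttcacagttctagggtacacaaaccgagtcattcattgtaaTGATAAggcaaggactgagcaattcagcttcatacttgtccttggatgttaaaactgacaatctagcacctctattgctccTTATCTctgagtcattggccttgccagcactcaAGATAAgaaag
*Zfpm1* chr8:124846706-124846863: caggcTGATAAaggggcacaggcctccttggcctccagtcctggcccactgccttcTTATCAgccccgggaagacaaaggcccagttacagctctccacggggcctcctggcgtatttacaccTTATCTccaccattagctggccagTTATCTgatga
*Kcnq5* chr1:21438996-21439244: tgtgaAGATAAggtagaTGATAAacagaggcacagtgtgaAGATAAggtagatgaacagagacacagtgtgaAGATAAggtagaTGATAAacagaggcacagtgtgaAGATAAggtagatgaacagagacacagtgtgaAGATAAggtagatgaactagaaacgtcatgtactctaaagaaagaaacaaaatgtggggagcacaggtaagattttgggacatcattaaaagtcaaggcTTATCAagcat
*Runx1* chr16:92715985-92716226: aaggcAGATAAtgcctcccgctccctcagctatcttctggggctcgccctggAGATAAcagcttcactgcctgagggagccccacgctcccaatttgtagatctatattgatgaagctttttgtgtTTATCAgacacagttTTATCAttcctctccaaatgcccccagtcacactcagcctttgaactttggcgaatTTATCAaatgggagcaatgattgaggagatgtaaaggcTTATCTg
The *Lrig3*, *Zfpm1* and *Runx1* clusters mixed the strands and had uneven gaps. The *Kcnq5* cluster lay in a repeated unit, with gaps of 12, 23 and 32 bp that occurred again in the same order.

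The next 3 members, all of the DKO list, are shown because they have no WT peak within 500 bp. Capitals again mark the matches.
*Gata1* chrX:7543395-7543468: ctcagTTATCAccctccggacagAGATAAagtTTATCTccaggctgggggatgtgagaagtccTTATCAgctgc
*Gata4* chr14:63850014-63850207: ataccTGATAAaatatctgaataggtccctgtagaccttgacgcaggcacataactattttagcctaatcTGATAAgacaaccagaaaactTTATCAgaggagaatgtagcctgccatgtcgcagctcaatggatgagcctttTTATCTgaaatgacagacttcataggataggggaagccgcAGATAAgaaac
*Ralb* chr1:121369316-121369445: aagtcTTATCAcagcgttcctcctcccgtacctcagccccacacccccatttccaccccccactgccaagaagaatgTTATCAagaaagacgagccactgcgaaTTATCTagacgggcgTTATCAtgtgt
The *Gata1* and *Gata4* clusters held matches on both strands, and all 4 matches of the *Ralb* cluster lay on the minus strand.

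The last 3 show the simple repeats that also passed the rule, with the matches in capitals. The *Cd59a* stretch holds 4 matches at a constant 32 bp and was the tallest member of both lists, and the other stretches hold 13 and 12 matches, most or all of them 5 bp apart, in DKO members without a WT peak within 500 bp.
*Cd59a* chr2:103938743-103938854: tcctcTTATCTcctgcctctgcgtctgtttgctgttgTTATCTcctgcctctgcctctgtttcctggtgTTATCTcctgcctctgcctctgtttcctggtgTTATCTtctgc
*Fgfr2* chr7:138889024-138889138: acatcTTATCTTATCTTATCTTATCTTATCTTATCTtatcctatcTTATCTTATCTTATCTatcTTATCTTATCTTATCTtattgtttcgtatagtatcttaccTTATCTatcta
*Olfr1042* chr2:85994653-85994723: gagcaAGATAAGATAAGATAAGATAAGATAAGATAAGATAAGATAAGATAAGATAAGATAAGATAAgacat
Members with at least 3 equally spaced matches on the same strand, here called arrays, numbered 26 among WT and 28 among DKO peaks. Their sequence was repetitive, and how reads from such repeats were placed was not tested. The gaps had to be exactly equal, so repeats with uneven gaps, such as that at *Kcnq5*, were not counted as arrays.

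Peaks with many motifs were more frequent among WT than among DKO peaks, and in both lists far more frequent than in nearby DNA. Members made up 3.77% of the WT peaks (95% Wilson interval 3.52 to 4.04%) and 2.21% of the DKO peaks (2.03 to 2.41%). The lists differ in how many peaks lie at promoters, and with peaks within 1 kb of a start site left out the shares were closer, 5.18% in WT (4.83 to 5.55%) and 4.47% in DKO (4.10 to 4.87%). These and the later intervals cover counting error within a library only, and with 1 library per condition no test between WT and DKO was possible. In windows of the same length 2 kb to either side of each peak, at least 4 matches occurred in 208 of 40814 windows for WT (0.510%) and 205 of 45458 for DKO (0.451%). The share in peaks was therefore 7.40 times that of the flanks for WT and 4.91 times for DKO.

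The excess over the flanks grew with the number of matches up to 5. In the WT list peaks with a single match were 1.03 times as frequent as flanking windows with 1 match, and the ratio was 2.12, 3.99, 6.80 and 11.1 at 2, 3, 4 and 5 matches. In the DKO list the corresponding ratios were 0.718, 1.32, 2.55, 4.37 and 5.56. At 6 or more matches, where flanking windows were few, the ratios were 7.85 for WT and 18.8 for DKO. Just outside the rule lay 1719 WT and 1062 DKO peaks with 3 matches, and just inside it 575 WT and 367 DKO peaks with 4. Although few, the members held 14.9% of all matches found in WT peaks (3375 of 22719) and 15.2% of those in DKO peaks (2278 of 15012). The largest clusters held 11 matches in WT and 20 in DKO, and of the members with at least 8 matches, 14 in WT and 15 in DKO, 6 and 13 were arrays.

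**Figure D1:**
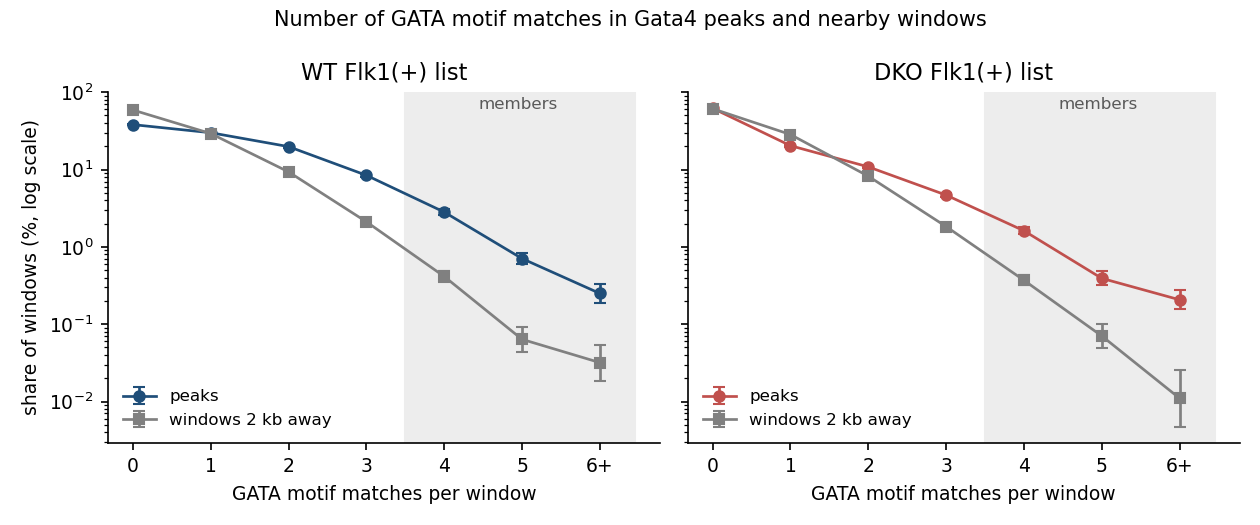
Share of 501-bp windows, on a log axis, that held each number of WGATAA matches, for the peaks of each list (coloured circles) and for windows 2 kb to either side (grey squares), with 95% Wilson intervals. From 2 matches on, the peaks lay above the flanks and the gap widened, to 11.1 times in WT and 5.56 times in DKO at 5 matches.

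Members were somewhat taller than the other peaks in both lists, more so in WT. Height here is the deposited height of the read-density profile at the peak, whose scaling between libraries is not stated. The median height of WT members was 9.73 (quartiles 6.51 and 16.3, highest 142), against 7.71 for the other WT peaks, a ratio of 1.26. DKO members had a median of 7.52 (quartiles 5.90 and 10.9, highest 101), against 6.90, a ratio of 1.09. The quartiles of members and other peaks overlapped widely, so height did not separate them. Away from promoters, more than 1 kb from any transcription start site, the medians were 9.87 and 7.45 for WT, and 7.51 and 6.40 for DKO.

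The median height varied modestly with the motif number and did not climb steadily in either list. WT peaks with 0, 1, 2, 3 and 4 matches had median heights of 7.51, 7.54, 8.12, 8.67 and 9.90, the 144 peaks with 5 matches one of 8.63 and the 51 with at least 6 one of 10.99. The corresponding DKO medians ran from 6.67 to 7.74 at 0 to 3 matches and were 7.45 at 4, 7.86 at 5 and 7.64 at 6 or more. The tallest peak of the WT list, at 816, held 3 matches and so fell just outside the rule. Of the 100 tallest peaks, 24 were members in WT and 7 in DKO, while 8 and 43 of them held no match.

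The background in ES cells was also compared. At the members' positions the median ES height was 1.56 in WT and 1.08 in DKO, against 1.68 and 1.59 at the other peaks. The deposited enrichment, the ratio of Flk1(+) to ES height with an ES height below 1 taken as 1, had a median of 5.72 for WT members and 4.49 for other WT peaks. For DKO the medians were 5.90 and 4.33. The score of the authors, a rank that follows the q-value, placed 202 WT members (26.2%) and 142 DKO members (28.2%) in the best decile of their list. Of the peaks with 3 matches 21.0% in WT and 30.5% in DKO were in it, with median enrichments of 5.46 and 6.03. Members were 9.90% of the best decile and 1.57% of the last decile of the WT list, and 6.24% and 0.176% of those of the DKO list.

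Members of the DKO list mostly had a WT peak at the same site, whereas fewer than every other WT member had a DKO peak. Peaks whose positions lay within 500 bp were counted as shared. In the WT list 351 of 770 members were shared, 45.6% (42.1 to 49.1%), beside 45.6% of all WT peaks. In the DKO list 351 of 503 members were shared, 69.8% (65.6 to 73.6%), beside 45.1% of all DKO peaks. The WT members thus stood at the background of their list and the DKO members above it. Of the peaks with 3 matches, just outside the rule, 42.3% in WT and 69.5% in DKO were shared. The high sharing in DKO was therefore not particular to members.

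The background differs in makeup, since the other peaks include many at promoters. With peaks within 1 kb of a start site left out, 46.2% of WT members and 34.3% of other WT peaks were shared, and 70.1% of DKO members and 44.1% of other DKO peaks. Better-scoring peaks were shared more often, and members scored better. When the other peaks away from start sites were weighted to the members' spread over deciles of the score, 42.5% of them were shared in WT, 3.75 percentage points below the members, and 53.7% in DKO, 16.4 points below the members. The values by decile that follow are over all peaks, those within 1 kb of a start site included. In the best decile of the list 76.7% of WT members and 73.7% of the other WT peaks were shared, and 90.1% and 76.7% in DKO. In each of deciles 2 to 10 the share of WT members lay below that of the other peaks, the difference running from -0.318 points in decile 2 to -30.3 in decile 6, on 32 to 116 members a decile. In DKO the members lay above the other peaks in deciles 2 to 8, by 8.83 to 26.5 points on 31 to 79 members a decile, and below them in the last 2 deciles, which held 23 and 4 members.

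**Figure D2:**
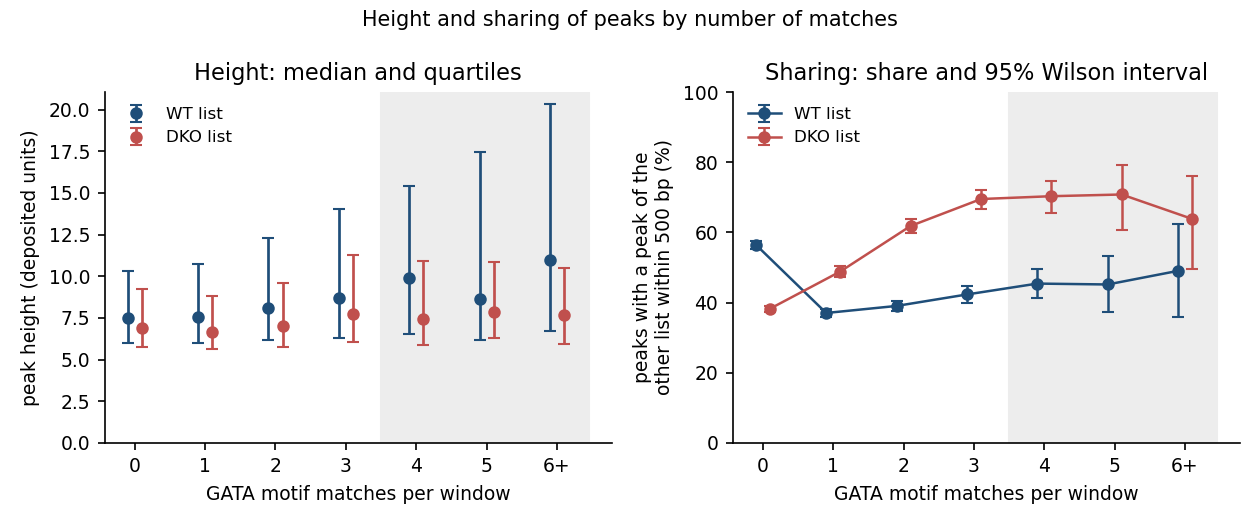
Left, peak height in deposited units by number of matches, as median and quartiles. Right, share of peaks with a peak of the other list within 500 bp, with 95% Wilson intervals. Shaded classes are members. DKO sharing climbed from 38.2% at 0 matches to 69.5% at 3 and 70.3% at 4. In WT it fell from 56.5% at 0 to 37.0% at 1 and stood at 45.4% at 4.

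Where a member was shared, the counterpart was nearly always the same cluster. The nearest peak of the other list was itself a member for 311 of the 351 shared members in each direction (88.6%), and most of the remainder held 3 matches. The positions lay close, with a median distance of 17 bp for WT members and 16 bp for DKO members, and 292 and 291 counterparts within 50 bp. Members of both lists within 500 bp of each other were joined into 922 loci, of which 299 held members of both lists, 439 of WT only and 184 of DKO only. Of the WT-only loci 37 had a DKO peak that was not a member, and of the DKO-only loci 35 had such a WT peak. Within 5 kb of the member no peak of the other list was called at 372 WT and 134 DKO members. A missing peak means only that none passed the authors' thresholds in that library, and the depth there is not known from the lists.

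Members found in both lists were taller than those found in 1. Shared WT members had a median height of 15.2 and unshared ones 7.02, and the DKO medians were 8.14 and 6.64. Within the shared sites the WT peak was usually the taller. For the 351 shared WT members the WT height exceeded that of the nearest DKO peak in 308 (87.7%), and the median log2 ratio of WT to DKO height was 0.87 (order-statistic 95% interval 0.77 to 0.94), a fold of 1.83. For the other shared WT peaks it was 0.26 (0.25 to 0.28), and 68.6% were taller in WT. The scaling of the heights is unknown, so the level of either ratio cannot be read as more or less binding. Both sets of peaks share the same scaling, and the members' ratio was the larger by 0.61 on the log2 scale. The ES heights at these sites differed in the same direction. Their medians were 2.16 in WT and 1.02 in DKO for the shared members, and 2.10 and 1.55 for the other shared peaks. How far the ES signal bears on the Flk1(+) ratio was not tested.

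The WT to DKO height ratio rose stepwise with the number of matches. It was 0.09 on the log2 scale at 0 matches, then 0.41, 0.63 and 0.77 at 1, 2 and 3, and 0.84, 0.92 and 1.13 at 4, 5 and 6 or more. The median ES heights at the shared WT peaks with 0 matches were 2.20 in WT and 1.88 in DKO. At 4 matches they were 2.05 and 1.00, and at 6 or more 2.28 and 0.97. All 25 shared WT peaks with at least 6 matches had the taller Flk1(+) peak in WT. Away from start sites and at no more than 8 CpG dinucleotides per window, where members and other peaks are more alike in base composition, the ratio was 0.86 (0.76 to 0.93) for 296 members and 0.61 (0.58 to 0.64) for 3125 other peaks. Choosing by score in either list also shifts this ratio. In the best decile of the WT list members and other peaks were at 1.17 and 1.11, and in deciles 2 to 5 at 0.67 and 0.34. In deciles 6 to 10 of the WT list the 46 shared members were at 0.16 (-0.06 to 0.41), with 27 taller in WT, and the other peaks at 0.02. In the best decile of the DKO list members and other peaks were at 0.91 and 0.24, in deciles 2 to 5 at 0.87 and 0.28, and in deciles 6 to 10 at 0.91 and 0.35.

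**Figure D3:**
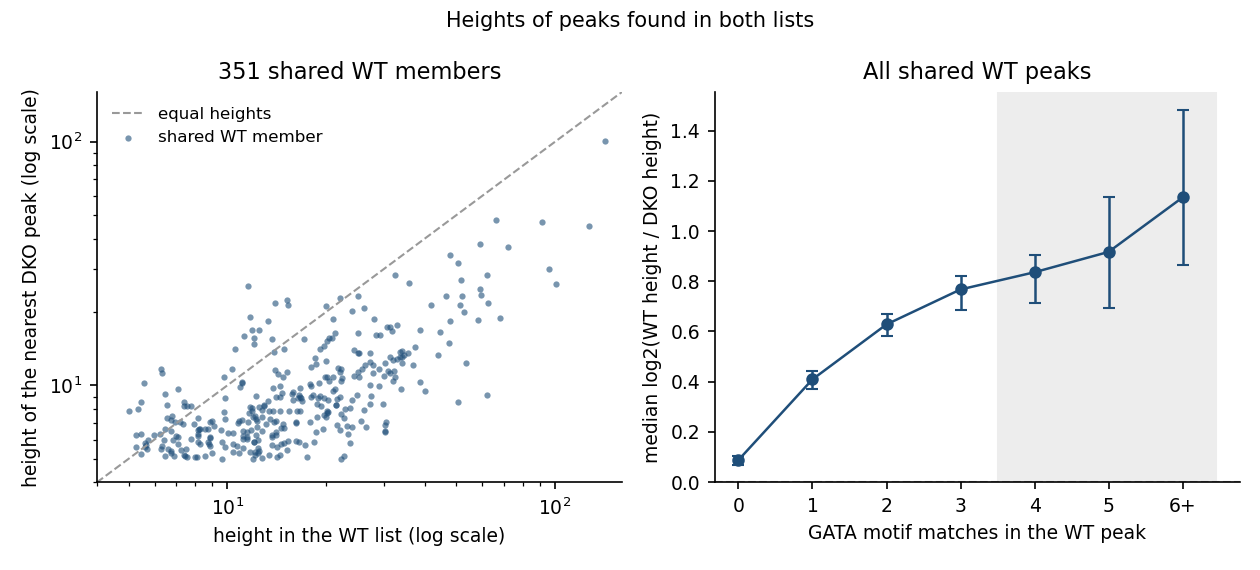
Left, height of each of the 351 shared WT members against that of the nearest DKO peak, both on log axes in deposited units, with the line of equal heights. Right, median log2 ratio of WT to DKO height of all shared WT peaks by number of matches, with order-statistic 95% intervals. 308 members lie on the WT side of the line, and the median ratio climbs from 0.09 at 0 matches to 1.13 at 6 or more.

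The matches of the members were denser at the peak position than in the rest of the window, although the clusters were wide. From the first to the last match they spanned a median of 249 bp in WT and 250 bp in DKO. Of the 3375 matches in WT members 38.5% (36.8 to 40.1%) fell in the central 100 bp, and of the 2278 in DKO members 37.97% (36.00 to 39.98%). Even placement would put 20.4% there, and in flanking windows with at least 4 matches the shares were 20.5% and 21.2%. Peaks with 1 to 3 matches had a still larger share in the centre, 48.2% in WT and 43.5% in DKO. A single central match was found in 33.0% of WT members and at least 2 in the larger part, with 2 in 36.4%, 3 in 15.8% and 4 or more in 3.64%. No match lay in the central 100 bp of 86 WT and 54 DKO members. Shared and unshared members had like shares, 39.0% and 38.03% in WT and 37.9% and 38.2% in DKO.

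**Figure D4:**
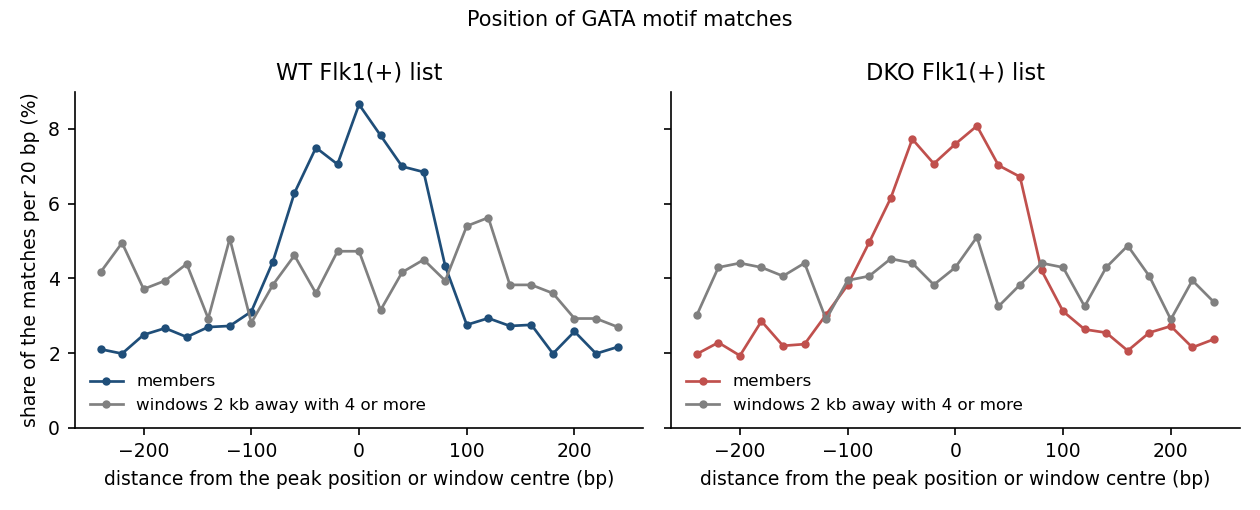
Share of matches per 20-bp bin against the distance from the peak position, for members (coloured) and for windows 2 kb away with at least 4 matches (grey, distance from the window's centre). The share per bin rises towards the position from both sides, with 38.5% (WT) and 37.97% (DKO) in the central 100 bp, and the flanking windows show no such rise.

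The gaps between neighbouring matches showed little arrangement beyond this. Measured from start to start, 30.7% of 2605 neighbouring pairs in WT members (29.0 to 32.5%) and 30.7% of 1775 in DKO members (28.6 to 32.9%) were at most 30 bp apart, against 27.0% (23.8 to 30.5%) and 26.8% (23.5 to 30.3%) in flanking windows with at least 4 matches. Without arrays the shares were 29.7% for WT and 26.9% for DKO, both within the intervals of the flanks. The median gap was 54 bp in WT members and 51 bp in DKO members, and 61 and 65 bp in the flanks. Neighbours lay on the same strand in 57.1% and 59.5% of pairs, beside 59.2% and 57.1% in the flanks. The 5-bp gap, in which a pair shares a base as in the *Olfr1042* sequence above and which is the closest that the motif allows, accounted for 2.99% of pairs in WT and 3.38% in DKO, and for 2.47% and 1.84% without arrays, against 1.76% and 1.07% in the flanks. DKO members without a WT peak had more such pairs, 6.48% of 571, and more neighbours on the same strand, 65.1%, but the arrays carried this, since without them the shares were 1.34% and 56.3% of 448 pairs. Of the 28 DKO arrays, 46.4% (29.5 to 64.2%) were shared, against 71.2% of the other DKO members. In WT no such difference was seen, with 46.2% of the 26 arrays and 45.6% of the other members shared.

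The base after the motif set members apart from clusters in nearby DNA. The rule fixes the letters WGATAA but not the base that follows, and WGATAAG is the form known as the preferred GATA site. A G followed 34.9% of the matches in WT members (33.3 to 36.5%) and 37.5% in DKO members (35.6 to 39.5%), but 19.3% (16.8 to 22.0%) and 19.6% (17.1 to 22.4%) in the flanking windows with at least 4 matches. Within members it followed 44.1% of the central matches and 29.2% of those outside in WT, and 46.4% and 32.1% in DKO. Peaks with 1 to 3 matches had the higher central shares of 51.5% and 52.8%. Central matches of shared WT members had a G in 49.8% (45.8 to 53.7%) and those of unshared WT members in 39.2% (35.6 to 42.8%), whereas in DKO the shares were 46.5% and 46.0%. The first base was A rather than T in 59.2% of matches in WT members and 62.2% in DKO members, and in 54.6% and 53.9% in the flanks.

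**Figure D5:**
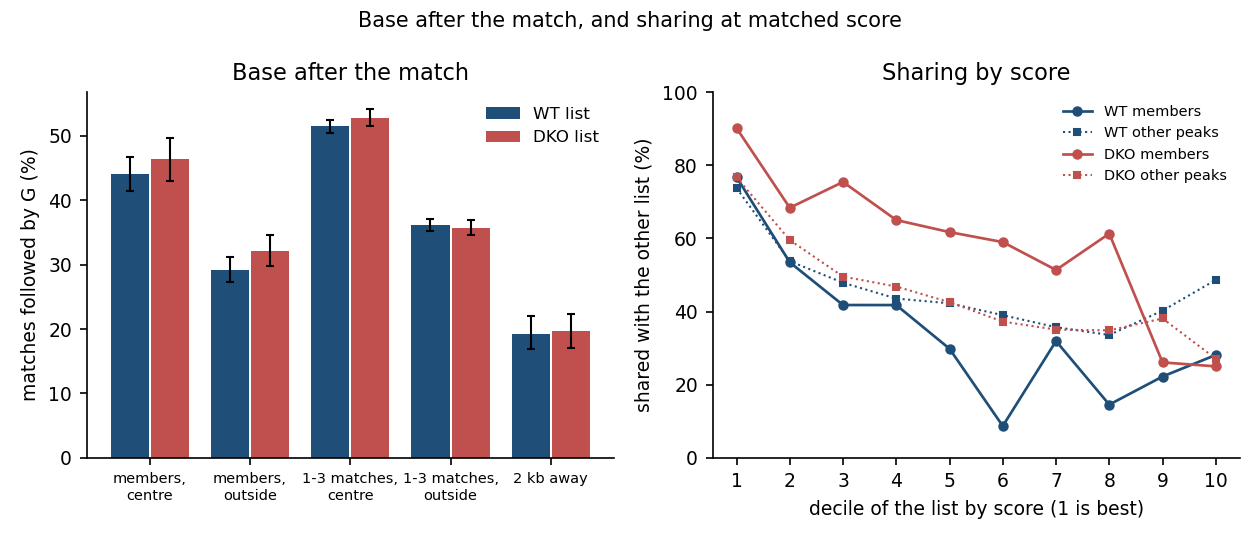
Left, share of WGATAA matches followed by G in members and in peaks with 1 to 3 matches, inside and outside the central 100 bp, and in windows 2 kb away with at least 4 matches, with 95% Wilson intervals. Right, share of members (solid) and other peaks (dotted) with a peak of the other list within 500 bp, by decile of the list in order of score. Peaks near start sites are included, and members in the last decile are few (32 in WT, 4 in DKO). Central matches of members carry the G in 44.1% (WT) and 46.4% (DKO) of cases against 19.3% and 19.6% in nearby windows, and DKO members exceed the other DKO peaks in each of the best 8 deciles.

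Members lay away from promoters. Only 19 of 770 WT members (2.47%, 1.59 to 3.82%) and 8 of 503 DKO members (1.59%, 0.808 to 3.11%) were within 1 kb of a start site, against 30.01% of the other WT peaks and 52.4% of the other DKO peaks. More than 5 kb from any protein-coding gene lay 50.9% of WT and 49.7% of DKO members, beside 33.2% and 19.6% of the other peaks. Inside genes they were almost all intronic, with 11 WT and 4 DKO members in exons. The median window held 4 CpG dinucleotides in WT members and 5 in DKO members, against 8 and 22 in the other peaks, and the GC content was 42.9% and 44.3% against 50.5% and 56.5%. In these traits peaks with 3 matches were nearer to members than the other peaks as a whole were. Of them 4.25% in WT and 6.21% in DKO lay within 1 kb of a start site. More than 5 kb from any gene lay 50.3% and 42.3% of them. Their median windows held 5 and 6 CpG, with a GC content of 45.1% and 46.1%. The rule itself favours AT-rich windows. Flanking windows with at least 4 matches had 3 CpG, with a GC content of 38.1% around WT peaks and 39.3% around DKO peaks.

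A member lay within 5 kb of 351 of 22238 protein-coding genes in WT (1.58%) and 238 in DKO (1.07%), with 148 genes in common. Peaks of any kind lay within 5 kb of 39.4% of genes in WT and 49.1% in DKO. Of the 8 genes for GATA factors and FOG cofactors, 2 had a WT member and 6 had a DKO member. They were *Zfpm1* and *Zfpm2* in both lists, and *Gata1*, *Gata2*, *Gata4* and *Gata6* in DKO only. The counts are those of a short list, the comparison is between single libraries, and 6 of the 8 genes had some WT peak and 7 some DKO peak.

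At *Zfpm1*, which encodes the FOG1 cofactor of Gata1, the intronic cluster printed above, 40787 bp from the start of the gene in WT, had a height of 71.8 in WT Flk1(+) cells and 36.8 in DKO, with ES heights of 10.6 and 2.76. A second intronic member of the DKO list was 5.26 high. *Zfpm2*, which encodes FOG2, a partner of Gata4 in heart development, had 4 WT and 2 DKO members, all intronic. A cluster of 5 matches deep in the gene stood at 12.002 in WT and 7.42 in DKO.

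The DKO members at the GATA genes had heights from 7.37 to 9.40, around or above the median of 7.52 for DKO members and of 6.91 for all DKO peaks. By enrichment and score they differed. The enrichment was 5.71 at *Gata1* and 6.76 at *Gata6*, but 3.31 at *Gata2* and 3.74 at *Gata4*, beside a median of 4.37 for all DKO peaks. The ranks by score were 3576 and 1776 at *Gata1* and *Gata6*, and 20017 and 18363 at *Gata2* and *Gata4*, of 22733 peaks. The *Gata1* member, in an intron of the annotated entry, had a height of 7.73 and the nearest WT peak was 14116 bp away. That at *Gata2*, a factor of blood progenitors, lay 3097 bp upstream with a height of 7.37, and a WT peak stood 970 bp from it. It was unusual among members in its 38 CpG dinucleotides. The *Gata4* member had 5 matches and a height of 7.46 in an intron of the entry, with the nearest WT peak 14858 bp away. At *Gata6*, a regulator of primitive endoderm, the member lay 491 bp downstream of the start with a height of 9.40, and a WT peak with 1 match and a height of 6.67 lay 287 bp from it.

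The blood and vessel list had WT members at 2 of 30 genes, *Runx1* and *Meis1*, and DKO members at the same genes. *Runx1*, required for the first definitive blood stem cells, carried the intronic cluster of 6 matches shown above, with heights of 32.2 in WT and 11.5 in DKO. At *Meis1*, a homeobox partner of Hox proteins, a WT member 4124 bp upstream had a height of 15.4, and a DKO member 207 bp from it one of 21.4. The WT peak nearest to that DKO member was another one, 114 bp away, with 2 matches and a height of 25.2.

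In each list 1 of 33 cardiac genes (3.03%) had a member, beside 1.58% of all genes in WT and 1.07% in DKO. In WT it was *Isl1*, which marks progenitors of the second heart field, with a member of height 7.02 in an intron. In DKO it was *Myl7*, an atrial myosin light chain, with a member of height 14.01 located 3576 bp downstream of the gene. The *Myl7* site was shared, since a WT peak with 2 matches and a height of 22.4 lay 55 bp from the member. None of 34 endoderm genes had a member in either list, although 19 had a WT peak and 18 a DKO peak of some kind. That gene list leaves out *Gata4* and *Gata6*, which the paper also treats as endoderm genes. They were counted with the GATA factors above and had DKO members. Among the genes that the study listed from its expression arrays as responding more strongly to Gata4 in DKO cells, 1 of 53 in the first group had a member in each list, *Myo5b* in WT and *Btn2a2* in DKO. A WT peak with 3 matches and a height of 5.39 lay 354 bp from the *Btn2a2* member. In the second group 1 of 39 had a WT member and 2 a DKO member, *Pnoc* in both and 1190002H23Rik in DKO, with heights from 6.43 to 6.60. These shares stood on 1 or 2 genes each, beside 1.58% and 1.07% of all genes.

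Of the 5 tallest members of each list, 3 were the same sites, at *Cd59a*, *Lrig3* and *Lhx1*. *Cd59a*, which encodes an inhibitor of complement, had the tallest member at heights of 142 in WT and 101 in DKO, in the intronic repeat printed above. Its ES heights of 20.4 and 9.47 were also high, and 3 of its 4 matches lay in sequence that the deposited file writes in lower case, the usual mark of repeats. *Lrig3*, a transmembrane protein with leucine-rich repeats, followed with 127 in WT and 45.2 in DKO at a site 4.3 kb upstream of the gene, where the ES heights were 2.90 and 3.63. The *Kcnq5* cluster of 8 matches, in an intron of a potassium channel gene, had heights of 101 and 26.0. All 3 *Kcnq5* members of WT were shared.

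Other tall members were also shared. A WT member of height 95.7, with a DKO counterpart of 30.02, lay in an intron of the entry for the retinol transporter *Stra6*, where the deposited list names *Ccdc33*. A site 67.7 kb upstream of *Lhx1*, a LIM homeobox gene, stood at 91.2 in WT and 47.0 in DKO, over high ES heights of 24.0 and 7.37. Among the tallest DKO members, *Csgalnact1*, an enzyme of chondroitin sulphate synthesis, had 47.6 in DKO and 66.0 in WT, and *Chd9*, a chromatin remodeller, 38.2 and 59.2. At each of these sites the WT peak was the taller.

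Members without a counterpart had the lower medians given above, but some were tall. Tall WT members of this kind included those near *Fstl4* (36.0), *Cox7a1* (35.2), *Mrps23* (29.5) and *Vmn1r53* (27.1). The one at *Cox7a1*, which encodes a muscle form of a cytochrome c oxidase subunit, was among the few at a promoter, 118 bp upstream of the gene. ES heights were 10.1 near *Fstl4*, 9.97 at *Cox7a1*, 3.43 at *Mrps23* and 1.35 at *Vmn1r53*, beside a median of 1.56 for all WT members. The enrichments of these WT sites were 3.57, 3.52, 8.60 and 20.1 in the same order, beside a median of 5.72 for WT members. In DKO the tallest lay in introns of *Efcab2* (28.3), *Ralb* (25.7), a small GTPase, and *Igfbp4* (23.6), which encodes a binding protein of insulin-like growth factors. They were followed by sites upstream of *Me2* (20.7) and Gm17296 (20.3). ES heights at these 5 DKO sites ran from 2.97 to 7.33, above the median of 1.08 for all DKO members.

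Arrays made up 13 of the 15 DKO members with at least 8 matches and 6 of the 14 WT ones. In WT an intron of *Prkag2*, a subunit of the energy sensor AMP kinase, held 11 matches of which 10 were in lower case, with a height of 61.9, and an overlapping peak with 10 of the same matches was 24.8 high. The single DKO peak there was 9.10 high. *Lrrfip1* held 10 matches at a WT peak of 16.9, and its DKO counterpart, 16 bp away, held 10 at a height of 8.64. A further DKO peak, 164 bp from the WT one, held 15 matches at a height of 5.36. It counted as an array, whereas the WT peak of 10 matches in the same repeat did not. *Grm3*, a glutamate receptor gene, had a pair of overlapping WT peaks with 10 matches at 9.15 and 7.72 and no DKO peak nearby. The *Lrrfip1* cluster of 15 matches was shared, while the other 4 of the 5 DKO members with the most matches were not. Those held 20 matches in *Eya4* at 23-bp steps (height 6.06), 14 in *Adamts16* at 21-bp steps (14.7), 13 in the annotated entry of *Fgfr2* (17.2) and 12 near *Olfr1042* (5.67).

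Genes with at least 3 members were 9 in WT and 4 in DKO. The WT genes were *Arhgap6*, *Auts2*, *Bcas3*, *Dennd1a*, *Fgfr2*, Gm20388, *Kcnq5*, *Prkag2* and *Zfpm2*, and the DKO genes *Accn1*, Gm20388, *Lrrfip1* and *March1*. These are long genes, from 130218 bp for *Lrrfip1* upward. The annotated entries for *Fgfr2* and Gm20388 span 3009069 and 4434882 bp and run over other genes, so a member assigned to them may belong to another gene, as the *Zfpm1* member does for Gm20388. Some members were also counted close together, since 64 WT members lay in 32 runs and 39 DKO members in 19 runs whose positions were within 500 bp of the next.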

How the data were processed

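Gata4 ChIP-seq of 4 libraries was analysed from the deposited peak lists. The authors mapped reads to mm9, with CASAVA 1.8.1 and cutadapt named in the submitters' processing notes, and called peaks with the DNAnexus tools with the ES library of that genotype as background. The lists hold, for each peak, the height as a signal, the Flk1(+) to ES ratio, the −log10 of the q-value and the rank used as a score, all made by the authors, besides distances to RefSeq genes. How heights were scaled, the depth of each library and duplicate handling were not given in the lists. The paper reports more mapped reads for the DKO than for the WT Flk1(+) library. No column names a library, so WT and DKO were told apart by how many peaks each list holds.

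The deposited 501-base windows matched mm9 centred on the peak position for all 20410 WT and 22733 DKO peaks. Matches were counted in Python 3.11.15 with pandas 2.3.3 and pysam 0.24.0, and intervals were computed with SciPy 1.17.1. The counting was tested on simulated windows. Protein-coding genes were taken from GENCODE vM1 (the longest entry where a symbol occurs more than once), and 2 listed genes (2010003K15Rik and 1700016F12Rik) were not placed. With 1 library per condition no test was run. Named peaks were, per list, the 5 members with most matches, the 5 tallest, the 5 tallest unshared and the tallest member of both lists, and named genes were those nearest to them, those with at least 3 members within 5 kb and those of the fixed lists with a member within 5 kb. The members and the lists were chosen with earlier results of these data known. Printed sequences carry the name of the nearest gene. Some members that the rule names are not reported here. Expression arrays of the study were not analysed here.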

Additional observations from a re-analysis of the deposited data

How the results depend on the processing

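Each share, ratio and difference was recomputed with 1 choice changed at a time, which gave 80 values, of which 43 stayed within the 95% interval of the reported value and 37 moved outside it. Among the latter the difference in sharing in WT, whose reported interval spanned 0, changed its sign once, as given below. Counting only peaks with at least 5 matches left 0.955% of WT and 0.598% of DKO peaks as members, at 10.00 and 7.35 times the flanks. Close neighbours then rose to 36.0% and 38.4%, and central matches fell to 35.4% and 34.4% (the cause was not tested). With the looser WGATAR the members were 11.2% and 6.39% of peaks, at 3.58 and 2.46 times the flanks, with 35.5% and 36.4% close neighbours, 36.4% central matches in WT and 3.44% of DKO members within 1 kb of a start site. Among the better-scoring peaks members made up 5.34% and 3.25%, 55.96% and 76.7% of them were shared, and 1.28% of those in WT lay within 1 kb of a start site. Keeping the tallest peak of each run gave 2.51% in DKO. Wider or narrower distances moved the shares by construction: sharing within 100 bp was 41.7% and 63.8%, neighbours within 50 bp 47.5% and 49.4%, and members within 5 kb of a start site 12.3% and 14.5%.

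With the other peaks weighted to the members' score the difference in sharing was -6.32 percentage points in WT and 15.5 in DKO. The following alternatives, and the ratios to the flanks given above, were chosen after seeing the data. Without matches in lower case 2.51% of WT and 1.57% of DKO peaks were members. Away from start sites the members made up 5.18% of WT and 4.47% of DKO peaks. Without arrays 26.9% of neighbours in DKO members were close. Away from start sites the height ratio was 1.17 in DKO, and sharing among WT members exceeded that of the other peaks by 11.9 percentage points, where all peaks gave -0.0062 points, so the place of WT members relative to their list depended on which peaks they were set against. The DKO members were shared more often than the other peaks in each of these. The lower-scoring peaks, near the lowest height called, limit what an absent counterpart shows. No paired analysis was possible because each condition has 1 library, and no replicate could be left out.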

Other observations

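Other motifs were counted in the members and in the flanking windows with at least 4 WGATAA matches, on both strands. TGTTTAC, the core bound by forkhead factors such as Foxa2, was found in 13.2% of WT members and 11.7% of DKO members, against 8.17% and 5.37% of such flanking windows, and in 7.49% and 6.03% of all peaks. TGACTCA, the AP-1 site, was found in 12.3% and 11.1% of members against 6.73% and 8.78% of the flanking windows, and in 13.6% and 12.3% of all peaks. TNAAGTG, the site of the cardiac factor Nkx2-5, stood at 34.3% and 32.8% against 30.3% and 28.3%, and at 23.4% and 18.1% of all peaks.

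An E-box, CANNTG, within 20 bp of a WGATAA match was found in 49.5% of WT and 48.1% of DKO members, beside 49.0% and 54.1% of those flanking windows. ACANNNTGT, the core of the glucocorticoid receptor element, was found in 14.4% of WT members and 17.1% of DKO members, beside 13.9% and 15.1% of those flanking windows and 12.4% and 10.0% of all peaks. AGGTGTGA, a T-box site, was found in 2.99% and 1.79% of members, beside 1.44% and 2.44% of those windows and 4.60% and 2.06% of all peaks. CCGGAAGT, the Ets site common at promoters, was found in 3 WT and 6 DKO members, beside 2.86% and 5.42% of all peaks. Such flanking windows numbered only 208 and 205, so their shares have wide counting intervals, and no motif was tested for a difference.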
